A study of Mus musculus with 10 samples.

Results

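The 78 genes described here are named as proteins of the mitochondrial ribosome, of which Mrps36 is now known as a part of another complex. They were taken as every protein-coding gene whose symbol begins with Mrpl or Mrps and a number, out of 26227 genes and 17251 protein-coding genes listed in the deposited files. For each gene 1 transcript was used, the principal coding one where listed. This transcript is annotated as coding for 77 of the 78 genes, and as subject to nonsense-mediated decay for Mrpl32. Of the 78, 49 carry a large-subunit name and 29 a small-subunit name. The mitochondrial ribosome translates the few proteins encoded by mitochondrial DNA, all of them subunits of the respiratory chain and the ATP synthase. Its RNA parts come from mitochondrial DNA, while its proteins are encoded in the nucleus, made in the cytosol and imported. Some of these proteins have counterparts in the bacterial ribosome and others exist only in mitochondria.

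RNA was sequenced from a mouse cell line, ER-Hoxa9-Lys-GFP, of the C57BL/6 strain, grown in medium with serum and with stem cell factor supplied as conditioned medium. In such lines the transcription factor Hoxa9 is joined to an estrogen receptor domain, so that it works when estradiol (E2) is in the medium and keeps myeloid progenitors undifferentiated, and removing E2 lets them mature. The 10 libraries form 5 groups of 2: untreated cells with E2 throughout, cells kept 24, 40 or 72 h without E2 and then 96, 80 or 48 h with it again (called 24 h, 40 h and 72 h), and cells kept 120 h without E2 (called 120 h). All cells in all groups carry the fusion. The labels say neither whether the line is 1 clone nor whether the 2 libraries of a group came from separate cultures, so each p-value reflects the spread among these libraries alone, which may be technical.

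The labelled cell state was checked against marker genes. All 5 granulocyte markers and all 5 monocyte and macrophage markers were higher at 120 h and at 72 h than in untreated cells. The summed level of the granulocyte markers was 19000 to 19800 RPKM at 120 h and 241 to 444 RPKM at 72 h, against 0.993 to 2.4 RPKM in untreated cells (RPKM is reads divided by the length of the transcript and by the reads of the library). The summed level of the monocyte and macrophage markers was 1790 to 1840 RPKM at 120 h and 724 to 817 RPKM at 72 h, against 12.5 to 12.8 RPKM in untreated cells. The progenitor markers summed to 75.5 to 106 RPKM at 120 h and 619 to 659 RPKM at 72 h, against 1490 to 1520 RPKM in untreated cells. The 4 erythroid markers summed to at most 1.25 RPKM in any library. Hoxa9 averaged 96.2 ± 2.4 RPKM at 120 h and 55.1 ± 6.89 RPKM in untreated cells, and Esr1 11.4 ± 0.713 and 6.53 ± 0.933 RPKM (SD, n = 2 each). Reads of the fusion and of the native genes cannot be told apart. Of the other lists, all 3 eosinophil markers rose at both 120 h and 72 h, 2 of 3 mast cell and basophil markers fell and 1 rose at both, and both lymphoid markers tested fell at both, of which Igll1 averaged 0.381 RPKM at 120 h, 3.91 RPKM at 72 h and 152 RPKM in untreated cells. The eosinophil markers summed to 343 to 554 RPKM at 120 h and 1310 to 1490 RPKM at 72 h, against 12.9 to 36.4 RPKM in untreated cells. At 72 h that sum was above those of the granulocyte and of the monocyte and macrophage markers.

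Promoters were available from RefSeq (GRCm38.p6) for 69 of the 78 genes, as windows of 300 bases from 250 before to 50 after the start. A few are shown, chosen by the change of their genes. Mrpl12 and Mrps6 moved most at 120 h among the 69, as Mrpl38 and Mrps28 had no promoter available. Mrpl33, Mrpl36 and Mrpl49 rose at 72 h, and Mrpl52 and Mrpl14 fell at 72 h. Each line gives 150 bases that end before the annotated start, and capitals mark matches on either strand to 5 motifs searched by their letters: TGCGCA (part of the NRF1 site), CCGGAAG (ETS factors such as GABPA), CACGTG (the E-box of MYC and MAX), AAGATGG (YY1) and GGGCGG (the GC box). Neighbouring GC boxes may overlap each other.
Mrpl12 (chr11:120484463-120484612, plus strand): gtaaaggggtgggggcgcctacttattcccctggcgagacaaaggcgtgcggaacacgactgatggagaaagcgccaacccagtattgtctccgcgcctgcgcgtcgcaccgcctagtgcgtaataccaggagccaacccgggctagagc
Mrps6 (chr16:92058120-92058269, plus strand): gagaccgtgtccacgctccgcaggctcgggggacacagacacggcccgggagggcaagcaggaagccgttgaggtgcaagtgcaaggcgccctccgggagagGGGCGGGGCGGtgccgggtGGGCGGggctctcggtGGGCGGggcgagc
Mrpl33 (chr5:31613789-31613938, plus strand): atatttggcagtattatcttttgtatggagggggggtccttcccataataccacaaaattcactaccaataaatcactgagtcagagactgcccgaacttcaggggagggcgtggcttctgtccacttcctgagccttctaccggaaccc
Mrpl36 (chr13:73330838-73330987, plus strand): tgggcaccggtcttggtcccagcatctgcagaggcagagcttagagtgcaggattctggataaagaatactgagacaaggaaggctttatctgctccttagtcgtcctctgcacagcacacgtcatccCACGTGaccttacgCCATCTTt
Mrpl49 (chr19:6057786-6057935, minus strand): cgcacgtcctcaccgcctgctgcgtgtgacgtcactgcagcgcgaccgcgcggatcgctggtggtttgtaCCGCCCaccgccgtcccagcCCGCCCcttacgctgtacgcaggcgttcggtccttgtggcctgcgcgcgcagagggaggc
Mrpl52 (chr14:54426759-54426908, plus strand): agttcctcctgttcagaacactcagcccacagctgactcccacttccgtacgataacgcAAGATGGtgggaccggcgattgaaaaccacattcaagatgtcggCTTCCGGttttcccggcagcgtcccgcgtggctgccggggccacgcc
Mrpl14 (chr17:45686172-45686321, plus strand): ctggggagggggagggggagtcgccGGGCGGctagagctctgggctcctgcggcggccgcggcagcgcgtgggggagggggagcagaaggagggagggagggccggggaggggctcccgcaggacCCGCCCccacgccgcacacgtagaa

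The printed stretches differ in what they hold. Mrpl12 and Mrpl33 hold none of the 5 motifs there, Mrpl52 holds an ETS and a YY1 match, Mrpl36 an E-box and a YY1 match, and Mrps6, Mrpl49 and Mrpl14 hold GC boxes. The whole windows also hold an ETS match for Mrpl33, an NRF1 match for Mrps6 and Mrpl36, and a YY1 match for Mrpl49. Over the whole 300-base windows, the NRF1 motif was present in 21 of 69 member promoters (30.4%) and in 15.1% of 8481 promoters of coding genes tested. The ETS motif was present in 25 (36.2%, against 20.5%), the YY1 motif in 13 (18.8%, against 7.81%), the E-box in 5 (7.25%, against 10.5%) and the GC box in 33 (47.8%, against 65.8%). At least 1 of the NRF1, ETS and YY1 motifs was present in 44 member promoters (63.8%), against 37.2% of all. These are descriptions of letters in a window and not of binding. The median log2 fold change at 120 h was -1.06 in the 21 members with an NRF1 motif and -1.16 in the 48 without, and -1.06 in the 25 with an ETS motif and -1.2 in the 44 without.

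The 78 genes lie on 17 chromosomes, and their transcripts are 418 to 7300 bases long with a median of 1284. The transcripts of Mrps11 and Mrpl46, proteins of the small and the large subunit, start 30 bases apart in opposite directions. Since use of strand in counting is not given in the sources used here, reads of overlapping genes cannot be told apart, and 8 members overlap another gene's exons on the other strand over more than 20% of their length. On the same strand 4 do so, and 11 share more than 20% of their 50-base windows with another transcript, such as a pseudogene.

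All 78 genes were expressed and passed the filter of at least 1 RPKM in at least 2 libraries. In untreated cells their median level was 26 RPKM, 12 genes lay over 50 RPKM and 6 under 10 RPKM. Mrpl33, a small large-subunit protein with a bacterial counterpart, had the highest mean over the 10 libraries, followed by Mrpl42, Mrpl12, Mrpl30 and Mrps18c. In untreated cells Mrpl33 stood at 103.7 and 117.3 RPKM, Mrpl42 at 74.7 and 84.7, Mrpl12 at 77.1 and 76.2, Mrpl30 at 72.2 and 70.7, and Mrps18c at 66.7 and 63.8 RPKM. Mrpl42 and Mrpl12 overlapped, while the other neighbours in that order did not. The lowest means over the 10 libraries were those of Mrpl35, Mrps26, Mrpl17, Mrpl58 and Mrpl1, with untreated levels from 7.35 RPKM (Mrpl35) to 9.81 RPKM (Mrpl1), and in untreated cells Mrpl19 (9.14 and 9.17 RPKM) lay below Mrpl58 and Mrpl1. Across the 78 genes the level was lower for longer transcripts (Spearman's rho = -0.52), which is given as a description, since RPKM divides by that length.

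Together the 78 genes took their smallest share of coding RPKM at 120 h. The genes held 0.553% and 0.546% of the RPKM of all coding genes in untreated libraries, 0.556% and 0.577% at 24 h, 0.623% and 0.583% at 40 h, 0.626% and 0.592% at 72 h, and 0.316% and 0.265% at 120 h. Both 120 h libraries lay below all 8 others, and the 24 h, 40 h and 72 h libraries all lay above both untreated ones by this share. By summed RPKM, the libraries had 2602 and 2322 at 72 h and 1335 and 1007 at 120 h, against 2428 and 2434 in untreated cells, so the 72 h libraries lay on both sides of the untreated ones. The median gene stood at 103% and 91% of its untreated mean at 72 h and at 48.9% and 35.7% at 120 h. Split by name alone, the sum of the small-subunit genes divided by the sum of the large-subunit genes was 0.497 and 0.487 at 120 h and 0.492 and 0.499 at 72 h, against 0.526 and 0.505 in untreated libraries. The small-subunit names include Mrps30 and Mrps18a, which sit in the large subunit, and Mrps36. The large-subunit sum includes Mrpl33, which had 155 and 133.1 RPKM at 120 h and 103.7 and 117.3 RPKM in untreated cells. The lower ratio therefore depends on that gene and does not show that small-subunit genes fell more.

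**Figure D1:**
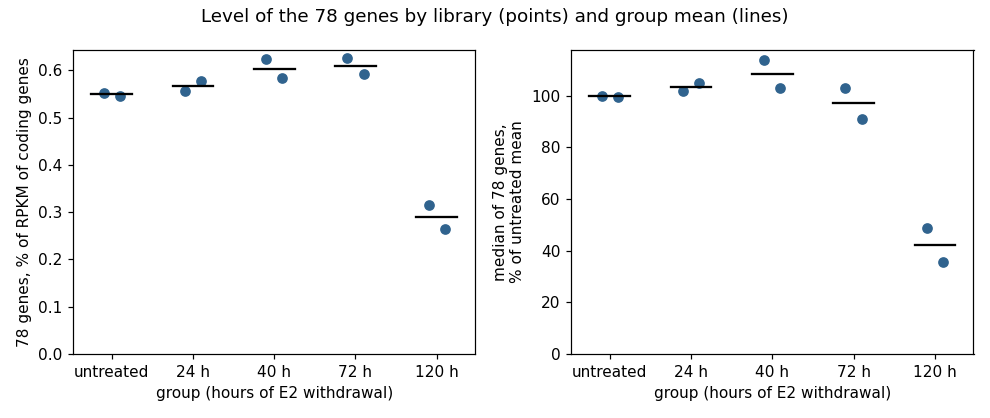
Level of the 78 genes in each of the 10 libraries, as percent of the RPKM of all coding genes (left) and as the median gene's percent of its untreated mean (right), with group means as lines. The 120 h libraries lie at 0.316% and 0.265%, below all others.

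After 120 h without E2, mRNA of nearly the whole mitochondrial ribosome was lower. Of the 78 genes, 77 fell, 1 rose (Mrpl33), and the median log2 fold change was -1.18 against untreated cells. limma's moderated test on log2(RPKM + 1) was used, with Benjamini-Hochberg adjustment over 13004 genes and an adjusted p under 0.05 as the call. Of the 77, 53 fell by at least 1 on the log2 scale, a size for which the share of all genes is not given. The background was large: 52.7% of all 13004 genes tested fell and 27.5% rose, with a median of -0.36, and 98.7% of the members fell. RPKM are relative to the library's reads, and scaling that sets the median gene to no change (median of ratios) moved the median of all genes to 0.00 and that of the members to -0.77. Under it 66 members fell (84.6%, with a background of 38.6% of all genes lower and 39.4% higher) and Mrpl33 rose, while Mrps21 and Mrpl4 turned to 0.05 and 0.01 and were not called. Of those 66, 20 fell by at least 1 on the log2 scale. In these bulk samples, fewer cells of a type and less RNA per cell cannot be told apart. The granulocyte and monocyte markers given above rose at 120 h together with this fall, and their part in it was not tested.

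**Figure D2:**
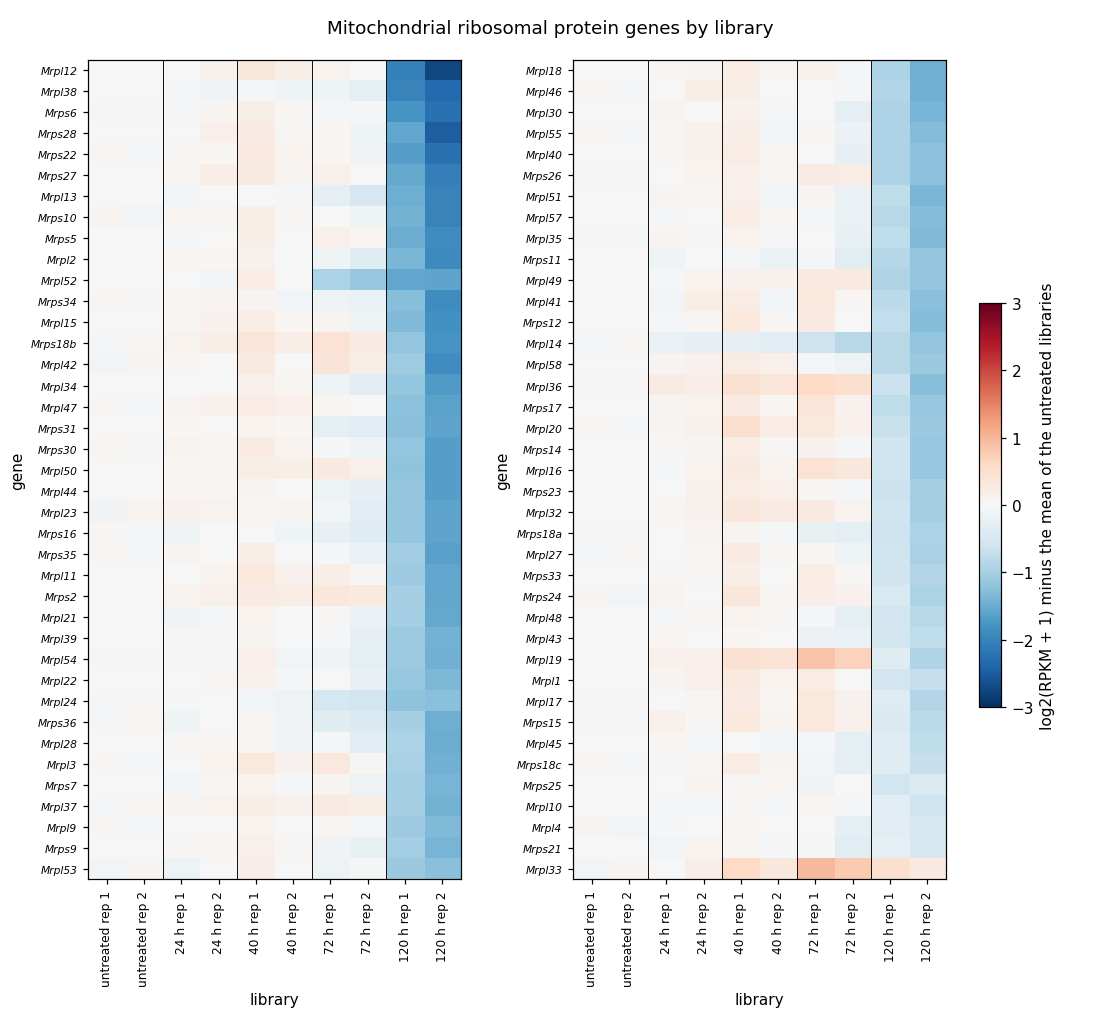
Each row is 1 of the 78 genes, ordered by its fold change at 120 h, and each column 1 library; colour is log2(RPKM + 1) minus the mean of the untreated libraries. The 120 h columns are blue for every gene except Mrpl33, and replicate 2 is the lower of the 2 for 77 of the 78 genes (Mrps25 being the other).

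The 2 libraries of the 120 h group differed in degree. Replicate 1 was above replicate 2 in 77 of 78 genes, by a median of 0.47 on the log2 scale, against a median of 0.05 over all genes tested. The same order held in 75 of 78 genes at 72 h (median 0.17) and in 75 of 78 at 40 h (median 0.15), against 21 of 78 at 24 h and 43 of 78 in untreated cells. Over all genes tested the median was -0.02 at 72 h and -0.02 at 40 h. Replicate 1 was the higher in 56% of all genes at 120 h, 45.7% at 72 h, 44.9% at 40 h, 39.6% at 24 h and 44.4% in untreated cells. Set against the untreated mean, the median gene had a log2 difference of -0.95 in 120 h replicate 1 and -1.36 in replicate 2, so the size of the fall differed between libraries and its direction did not.

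The genes that fell most came from both subunits. Mrpl12, the stalk protein through which translation factors are recruited to the large subunit, stood at 17.9 and 10.7 RPKM at 120 h, against 77.1 and 76.2 RPKM in untreated cells. The groups did not overlap, and the log2 fold change was -2.38 ± 0.19 (SE, limma, adjusted p = 8.45e-06). Mrpl38, a protein specific to mitochondria, had 7.78 and 5.94 RPKM at 120 h, against 34.5 and 33.9 RPKM in untreated cells (log2 fold change -2.17 ± 0.11, limma, adjusted p = 7.36e-07). Its other listed transcripts moved the same way, from -1.57 to -2.31 on the log2 scale over the 6 transcripts of at least 1 RPKM.

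Among small-subunit genes, Mrps6 had the lowest level at 120 h. It had 3.22 and 2.06 RPKM at 120 h and 13.7 and 13.2 RPKM in untreated cells (log2 fold change -2.01), though 36.1% of its transcript overlaps annotated exons on the same strand, among them Slc5a3. Mrps28 had 9 and 4.27 RPKM at 120 h and 27.9 and 28.6 RPKM in untreated cells (log2 fold change -2.01 ± 0.25). Mrps22, a mitochondria-specific protein whose variants cause mitochondrial disease in humans, had 6.16 and 3.76 RPKM at 120 h and 22.5 and 20.5 RPKM in untreated cells. Mrps27, a protein with pentatricopeptide repeats, had 7.34 and 4.79 RPKM at 120 h and 22.8 and 23.3 RPKM in untreated cells. For all 4 the groups were far apart, at log2 fold changes of -1.79 to -2.01.

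At the other end, a few genes fell little. Mrps21 had 40.3 and 34.5 RPKM at 120 h and 48.5 and 49.6 RPKM in untreated cells (log2 fold change -0.39 ± 0.12, limma, adjusted p = 0.0146). Mrpl4 had 21.6 and 18.5 RPKM at 120 h and 28.4 and 25.5 RPKM in untreated cells (log2 fold change -0.41), and Mrpl10 had 24.4 and 20.2 RPKM at 120 h and 31.8 and 30.9 RPKM in untreated cells (log2 fold change -0.48). The calls for these 3, for Mrps25 and Mrps18c and for 6 others were not made under median-of-ratios scaling. Mrps25 calls for care: its principal transcript of 6073 bases had 8.31 and 9.22 RPKM at 120 h and 12.5 and 12.8 RPKM in untreated cells (log2 fold change -0.48), but 75.6% of it overlaps Nr2c2 on the other strand. Nr2c2, a nuclear receptor gene, averaged 13.6 ± 1.6 RPKM at 120 h and 13.6 ± 0.728 RPKM in untreated cells, and the Mrps25 transcript of 565 bases had 10 and 6.74 RPKM at 120 h and 18.9 and 18.1 RPKM in untreated cells.

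Mrpl33 was the exception. It had 155.0 and 133.1 RPKM at 120 h and 103.7 and 117.3 RPKM in untreated cells, so the groups did not overlap (log2 fold change 0.38 ± 0.13, limma, adjusted p = 0.0297). Beside this, 27.5% of all genes rose at 120 h. The call was not made without 120 h replicate 1, without untreated replicate 1, without the filter, with array weights or with only the 2 groups in the fit, whereas its direction was the same in all alternatives. The files list 1 matched transcript of the gene, and 37% of it overlaps the annotated gene Gm43809 on the same strand.

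**Figure D3:**
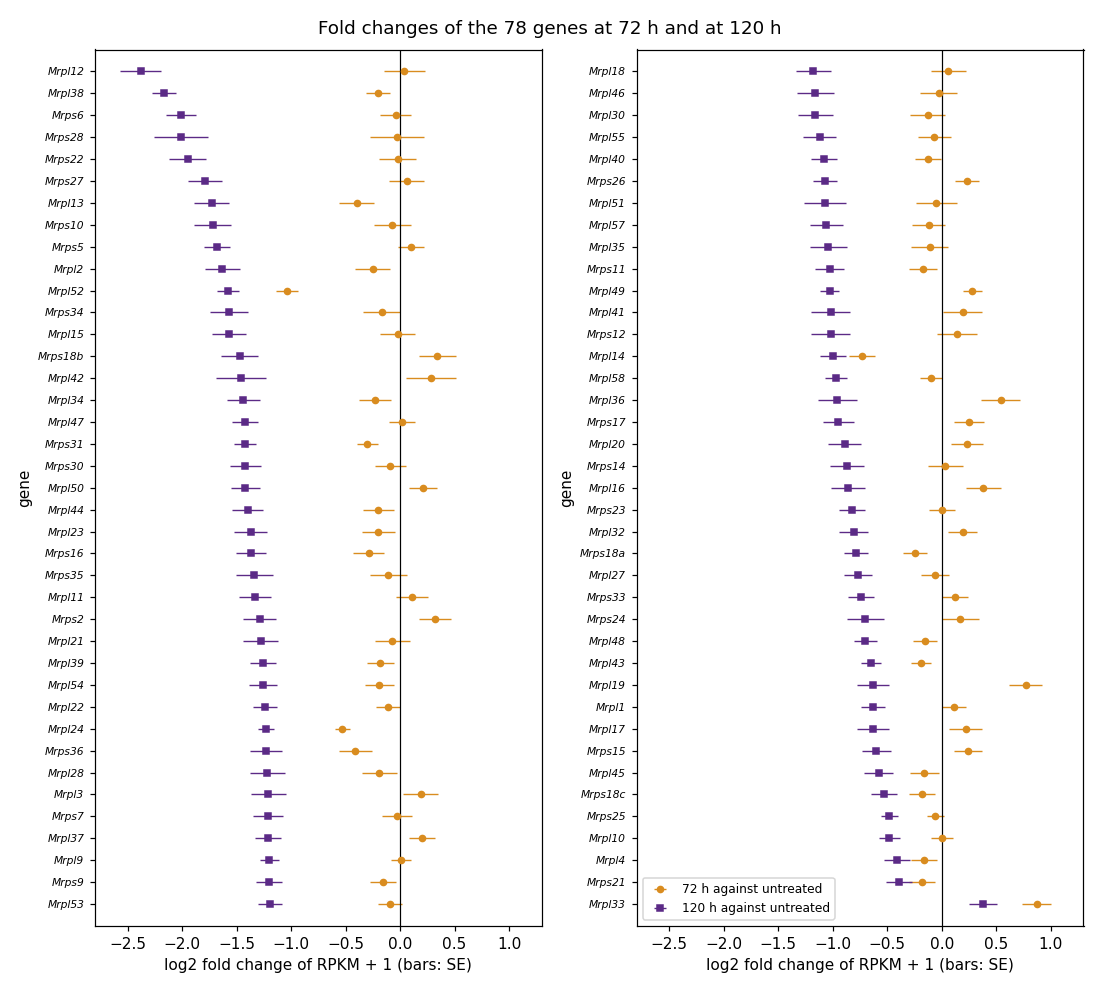
Log2 fold change of RPKM + 1, with its SE, of each of the 78 genes at 72 h (circles) and at 120 h (squares) against the same untreated libraries, ordered by the value at 120 h. At 120 h the values run from -2.38 (Mrpl12) to 0.38 (Mrpl33), and at 72 h most lie near 0.

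The fall at 120 h had nearly the same median under either subunit name and in genes of either evolutionary origin. The 49 large-subunit names had 48 lower, 1 higher and a median log2 fold change of -1.16, and the 29 small-subunit names had 29 lower and a median of -1.21. The 46 genes with a bacterial counterpart had a median of -1.17, and the 32 specific to mitochondria had a median of -1.2. Leaving out every gene with exon overlap left 50 genes, all 50 lower, with a median of -1.18. Neither the level of a gene (rho = -0.06) nor its transcript length (rho = 0.03) ranked the genes by their change, as a description over 78 genes measured in the same libraries.

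Functional sites within the ribosome held both large and small changes at 120 h, when 52.7% of all genes tested fell. Under median-of-ratios scaling 38.6% of all genes fell, and Mrpl10 and Mrpl45, given below, were not called. The 4 stalk genes all fell, with Mrpl12 at -2.38, Mrpl11 at -1.33, Mrpl53 at -1.19 and Mrpl10 at -0.48 on the log2 scale. Mrpl10 anchors the Mrpl12 copies at the stalk, and the 2 stood at opposite ends of the set. Mrpl53 lies wholly within the annotated gene Gm42688 on the same strand. The 6 genes of the site where the new protein leaves the large subunit also all fell, with Mrpl44 at -1.4, Mrpl23 at -1.37, Mrpl39 at -1.26, Mrpl22 at -1.24, Mrpl24 at -1.23 and Mrpl45, which helps to hold the ribosome at the inner membrane, at -0.58. Mrpl23 shares 76.4% of its windows with a pseudogene.

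In the small subunit, Mrps12 of the decoding centre had 12.8 and 8.29 RPKM at 120 h and 21.9 and 22 RPKM in untreated cells (log2 fold change -1.02). The 7 genes of the mRNA entry and the head all fell, from Mrps10 at -1.72 and Mrps5 at -1.68 through Mrps2 (-1.29), Mrps7 (-1.21), Mrps9 (-1.2) and Mrps14 (-0.87) to Mrps24 at -0.7. Of all genes tested, 52.7% fell at 120 h (38.6% under median-of-ratios scaling). The 3 Mrps18 paralogs differed in degree, with Mrps18b at -1.47, Mrps18a at -0.79 and Mrps18c at -0.53. Mrps24 and Mrps18c were not called under median-of-ratios scaling. Mrps18b is overlapped over 59.1% of its length by Gm16279 on the other strand. Mrps30, which with Mrps18a bears a small-subunit name but sits in the large subunit, was at -1.42. Mrpl58, a peptidyl-tRNA hydrolase that frees stalled ribosomes, was at -0.97. Mrps36, now known as a part of the 2-oxoglutarate dehydrogenase complex, was at -1.23.

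Adding E2 back after 72 h was compared with continuing without it. At 72 h, with 48 h of E2 since, 75 of 78 genes were higher than at 120 h and none lower, with a median log2 difference of 1.12. The background was 51% of all genes higher and 26.4% lower, with a median of 0.32. Under median-of-ratios scaling 65 members were higher (background 33.5% of all genes higher and 38.4% lower), with a median of 0.72 for the members and -0.02 for all genes, and 5 members were below 0, none of them called. The 3 uncalled genes were Mrps21 (0.21), Mrpl4 (0.26) and Mrpl14 (0.27), of which Mrps21 and Mrpl4 had fallen little at 120 h and Mrpl14 was low at 72 h as well. Mrpl12 had 82.1 and 75.5 RPKM at 72 h, against 17.9 and 10.7 RPKM at 120 h, the largest of these differences (2.42 on the log2 scale), and its 72 h values bracketed its untreated ones.

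Against untreated cells, the 72 h group had 4 genes higher and 4 lower, with 70 not called and a median log2 fold change of -0.05 (0.04 without 72 h replicate 2 and -0.13 without 72 h replicate 1). The background was 21.6% of all genes higher and 22.3% lower, so 5.13% of members in each direction were below it. This background belongs to the main fit, and no share of all genes is given for the refits that follow. Dropping either 120 h library from the shared fit gave 12 higher and 13 lower, while leaving out any other single library gave 2 higher. The 8 genes below kept their calls in every fit that lost a 120 h library, but Mrpl36, Mrpl49 and Mrps31 were not called when any 1 of the other 8 libraries was left out. Mrps31, with adjusted p = 0.0481, was also lost under median-of-ratios scaling, with a pseudocount of 0.1, with the highest transcript and with the sum of transcripts, Mrpl49 with the sum of transcripts, and all 3 with no filter.

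Mrpl33 rose most at 72 h, with 216.2 and 189.8 RPKM at 72 h, against 103.7 and 117.3 RPKM in untreated cells (log2 fold change 0.87, limma, adjusted p = 0.00127). Mrpl19, a large-subunit protein with a bacterial counterpart, had 17.3 and 15.4 RPKM at 72 h and 9.14 and 9.17 RPKM in untreated cells (log2 fold change 0.77, limma, adjusted p = 0.00442). All 3 of its transcripts of at least 1 RPKM were higher at 72 h, by 0.77 to 0.85, and 39.2% of its principal transcript overlaps Gcfc2 on the other strand, which averaged 1.99 ± 0.144 RPKM at 72 h and 1.33 ± 0.15 RPKM in untreated cells. Both genes were already high at 40 h in RPKM, without passing the test there.

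The other 2 that rose were Mrpl36 and Mrpl49. Mrpl36, a large-subunit protein with a bacterial counterpart, had 59.3 and 55.3 RPKM at 72 h and 38.4 and 39.8 RPKM in untreated cells (log2 fold change 0.54, limma, adjusted p = 0.0389). Mrpl49, a mitochondria-specific protein, had 30.8 and 30.8 RPKM at 72 h and 24.8 and 25.4 RPKM in untreated cells (log2 fold change 0.28, limma, adjusted p = 0.0364). Mrpl19, Mrpl36 and Mrpl49 were the only members called higher at 72 h and lower at 120 h. At 120 h Mrpl19 stood at 6.88 and 4.47 RPKM, Mrpl36 at 24.8 and 15.5 RPKM and Mrpl49 at 12.9 and 10.7 RPKM, all below their untreated levels. The call of Mrpl19 at 120 h was not made under median-of-ratios scaling (log2 fold change -0.25, limma, adjusted p = 0.173), while those of Mrpl36 (-0.54) and Mrpl49 (-0.62) were.

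**Figure D4:**
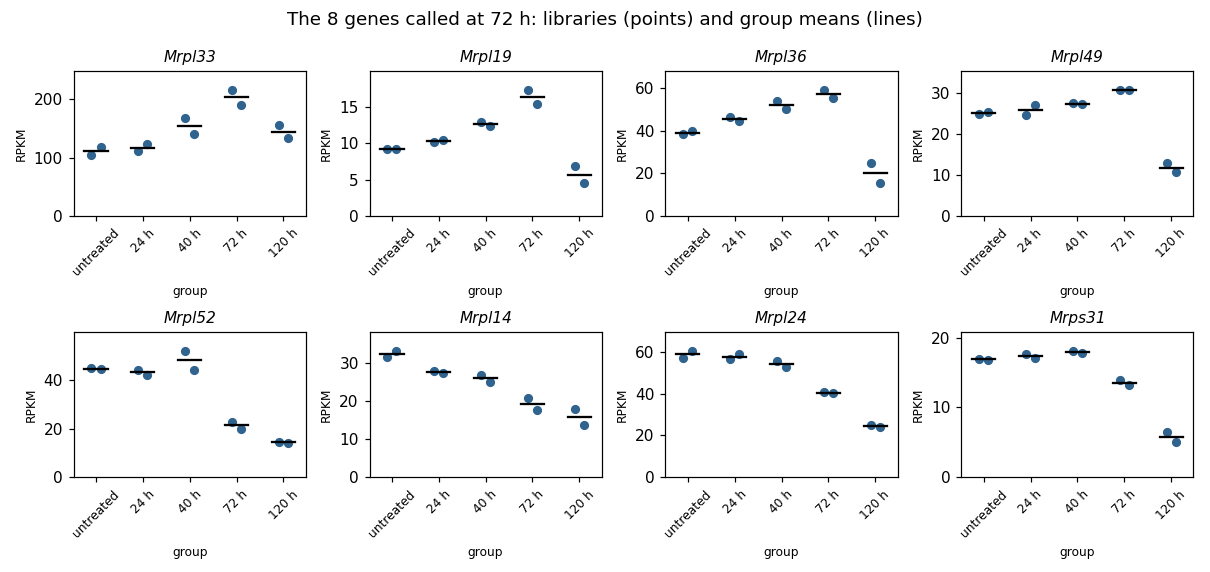
RPKM of the 8 genes called at 72 h against untreated cells, in each library (points, replicate 1 left) with the group mean (line). The upper 4 peak at 72 h and the lower 4 were lower at 72 h, with Mrpl52 at 22.7 and 20 RPKM.

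Mrpl52 showed the largest fall at 72 h. This mitochondria-specific large-subunit protein had 22.7 and 20 RPKM at 72 h and 45.2 and 44.5 RPKM in untreated cells (log2 fold change -1.04 ± 0.1, limma, adjusted p = 7.14e-05). At 120 h it had 14.5 and 14.3 RPKM, and at 40 h it had 52.1 and 44.4 RPKM, which overlapped the untreated libraries, and at 24 h 44.4 and 42 RPKM, just below both of them and not called. It was thus lower after 48 h of added-back E2, at a time when most members did not differ by the test from untreated cells. No other gene's exons overlap it.

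Mrpl14, which lies at the subunit interface where the assembly factor Malsu1 binds, had its highest values in untreated cells. It had 31.5 and 33.2 RPKM in untreated cells, 27.9 and 27.3 at 24 h, 27 and 25.2 at 40 h, 20.8 and 17.6 at 72 h, and 17.8 and 13.8 RPKM at 120 h. All 8 of these libraries lay below both untreated ones, and the test was passed at 72 h (log2 fold change -0.73, limma, adjusted p = 0.00207) and at 120 h (-1). Tmem63b, which overlaps 16.4% of it on the other strand, averaged 3.9 ± 0.71 RPKM at 72 h and 6.85 ± 0.192 RPKM in untreated cells. Mrpl24, a protein beside the exit tunnel, had 40.7 and 40.1 RPKM at 72 h and 57.2 and 60.4 RPKM in untreated cells (log2 fold change -0.53, limma, adjusted p = 0.000525). Its 6 transcripts of at least 1 RPKM varied in degree at 72 h, from -0.55 to -0.13 on the log2 scale. Of Mrpl24, 43.6% overlaps Rrnad1 on the other strand, which averaged 11.9 ± 1.59 RPKM at 72 h and 14.8 ± 0.257 RPKM in untreated cells. Mrps31 of the small subunit had 13.9 and 13.2 RPKM at 72 h and 16.9 and 16.8 RPKM in untreated cells (log2 fold change -0.3).

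Of the members named beside these 8, none passed the test at 72 h. Mrps36 had a log2 fold change of -0.41 (adjusted p = 0.054, limma), and it was called lower under TMM scaling, quantile normalization, the replicate block, the fit on recovered reads, array weights and the fits without 1 or both 120 h libraries or with the compared pair of groups alone, while Mrpl13 was at -0.4 (adjusted p = 0.0752, limma), Mrpl16 at 0.38, Mrps18b at 0.34 and Mrps2 at 0.32. At 72 h against 40 h, 4 genes were lower and none higher, against a background, in the main fit alone, of 13.8% of all genes lower and 13.9% higher. They were Mrpl52 (-1.14), Mrpl14 (-0.43), Mrpl24 (-0.41) and Mrps31 (-0.38), which were also the 4 lower against untreated cells, a comparison that shares the 72 h libraries. The calls of Mrpl14 and Mrps31 were not made when any 1 untreated, 24 h or 40 h library or 72 h replicate 2 was left out, nor that of Mrps31 without 72 h replicate 1, and 21 genes were lower without either 120 h library.

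Shorter withdrawal left no member called. At 40 h, with 80 h of E2 since, no gene passed the test (the background was 0.93% of all genes higher and 3.36% lower, and 4 members, or 5.13%, against 18.7% of all genes had an unadjusted p under 0.05), and the median log2 fold change was 0.1. At 24 h, with 96 h of E2 since, again none did (0 at an unadjusted p under 0.05, with no gene called of 13004 and 365 at an unadjusted p under 0.05), and the median was 0.04. Both 40 h libraries lay above both untreated ones in 41 members (52.6%), against 29.2% of all genes, and below in 5 (6.41%, against 33.3%). At 24 h both lay above in 27 members (34.6%, against 16.9%) and below in 6 (7.69%, against 27.1%). These are counts of libraries and not calls, and 40 h replicate 1, with 72 of 78 genes above the untreated mean, stood higher than replicate 2, with 49 of 78. Without the 120 h group in the shared fit, 6 members were called higher at 40 h (Mrpl19, Mrpl20, Mrpl32, Mrpl33, Mrpl36 and Mrps2) and 1 lower (Mrpl14). The share of all genes called in that fit is not given, so these counts have no background.

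At 40 h the highest were Mrpl33 (0.47), Mrpl19 (0.43) and Mrpl36 (0.4) and the lowest Mrpl14 (-0.3), Mrpl24 (-0.12) and Mrps11 (-0.12), all uncalled. At 24 h they were Mrpl36 (0.22), Mrpl19 (0.15) and Mrps18b (0.15), and Mrpl14 (-0.22), Mrps16 (-0.09) and Mrpl53 (-0.08). Mrpl36 stood at 46.6 and 44.8 RPKM at 24 h and at 54 and 50.3 RPKM at 40 h, and each of these was above both untreated values. All comparisons against untreated cells share the same 2 untreated libraries.

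Genes that act with the mitochondrial ribosome were compared from lists of its pathway. At 120 h 52.7% of all genes tested fell and 27.5% rose (38.6% and 39.4% under median-of-ratios scaling). The 5 other subunits of the ribosome, which have names of their own, all fell at 120 h, with a median log2 fold change of -1.51 (4 fell under median-of-ratios scaling). Chchd1 averaged 12.3 ± 3.66 RPKM at 120 h and 43.5 ± 1.71 RPKM in untreated cells, and Ptcd3 12.4 ± 1.93 RPKM at 120 h and 43.8 ± 0.846 RPKM in untreated cells (SD, n = 2 each). Dap3, a GTP-binding protein of the small subunit, was the only one called at 72 h (-0.33), and Aurkaip1 fell least at 120 h (-0.3). Of 30 assembly and rRNA modification genes found, 27 fell and 1 rose at 120 h (19 and 3 under median-of-ratios scaling), with a median of -0.85. C1qbp, a matrix protein that binds mitochondrial mRNA and ribosomes, averaged 31.3 ± 15.7 RPKM at 120 h and 194 ± 5.85 RPKM in untreated cells (log2 fold change -2.68), while Ddx28, an RNA helicase, rose by 0.71. At 72 h, when 21.6% of all genes rose and 22.3% fell, 8 of the 30 rose, led by Fastkd2 (0.65) and Trub2 (0.61), and 4 fell, led by Rpusd3 (-0.64) and Malsu1 (-0.52).

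All 16 mitochondrial translation factors fell at 120 h (14 under median-of-ratios scaling), with a median of -1.06. Tufm, the elongation factor that delivers tRNA, averaged 19.7 ± 6.11 RPKM at 120 h and 77.3 ± 1.46 RPKM in untreated cells, and its exchange factor Tsfm 6.14 ± 1.45 RPKM at 120 h and 24.4 ± 0.482 RPKM in untreated cells. At 72 h 3 of the 16 rose, among them Lrpprc (0.43) and Gfm1 (0.42), and 3 fell, among them Oxa1l (-0.52) and Mtif3 (-0.45), shares near those of all genes (21.6% and 22.3%). Of 20 mitochondrial aminoacyl-tRNA synthetases 17 fell at 120 h (median -1.23; 16 fell and 1 rose under median-of-ratios scaling), with Tars2 at -1.82. Lars2 was not called and varied widely within the untreated group (389 ± 351 RPKM). Of 17 genes for mitochondrial DNA transcription, replication and RNA processing 15 fell and 1 rose (median -1.31; 13 and 2 under median-of-ratios scaling). Lonp1, a matrix protease, averaged 19 ± 3.57 RPKM at 120 h and 128 ± 1.55 RPKM in untreated cells, and Polg, the mitochondrial DNA polymerase, 15.7 ± 1.94 RPKM at 120 h and 10.6 ± 0.497 RPKM in untreated cells. All 10 import genes fell (median -1.4; 9 under median-of-ratios scaling), led by the chaperonin gene Hspe1 (-2.52) and Hspa9 (-2.44).

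The respiratory complexes are built from proteins of the nuclear and of the mitochondrial genome. As the background for the counts below, 52.7% of all genes tested fell and 27.5% rose at 120 h (38.6% and 39.4% under median-of-ratios scaling). At 72 h 22.3% of all genes fell and 21.6% rose. Of 74 nuclear-encoded subunits of the respiratory complexes tested, 70 fell and 1 rose at 120 h (61 and 2 under median-of-ratios scaling), with a median of -1.15. Of 11 mitochondrially encoded mRNAs tested, 3 fell and 2 rose at 120 h (1 and 6 under median-of-ratios scaling), with a median of 0.19. At 72 h 6 of the 11 rose and none fell, with mt-Nd4 at 1150 ± 98 RPKM at 72 h and 537 ± 63.5 RPKM in untreated cells (log2 fold change 1.1). The difference between the nuclear and mitochondrial lists was not tested. Of 84 cytosolic ribosomal protein genes, 82 fell at 120 h (76 under median-of-ratios scaling), with a median of -1.34, and 24 fell and 1 rose at 72 h, with a median of -0.54. The 78 mitochondrial ribosomal protein genes had a median of -0.05 at 72 h.

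**Figure D5:**
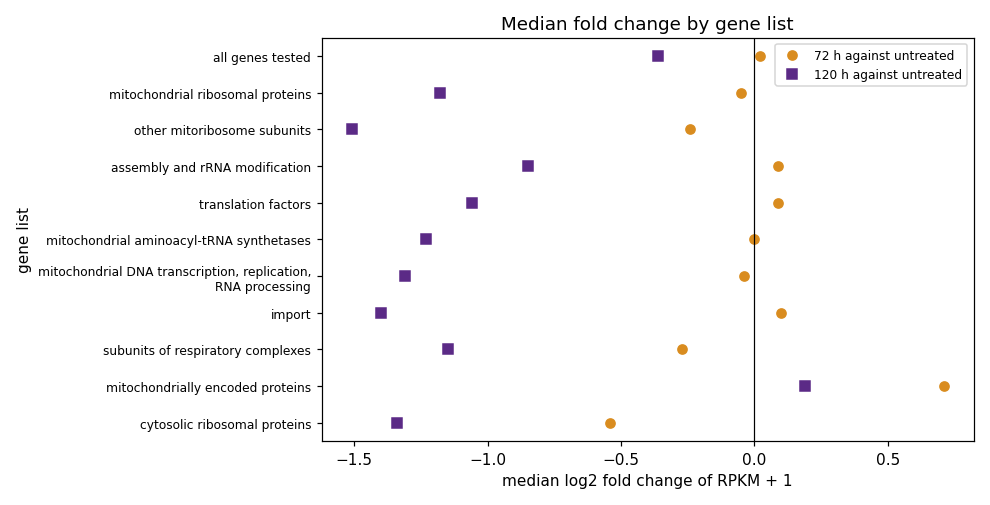
Median log2 fold change of RPKM + 1 for each gene list at 72 h (circles) and 120 h (squares) against the same untreated libraries, with all genes tested in the top row. The mitochondrial ribosomal proteins lie at -0.05 and -1.18, the cytosolic ones at -0.54 and -1.34.

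Regulators whose motifs were searched, and their partners, were listed with their levels. Myc averaged 32.5 ± 14 RPKM at 120 h, 210 ± 6.96 RPKM at 72 h and 188 ± 1.68 RPKM in untreated cells, and it fell at 120 h (log2 fold change -2.56, limma, adjusted p = 1.64e-05) and was not called at 72 h. Its dimer partner Max rose at 120 h (0.48) and at 72 h (0.21). Mycn averaged 0.002 RPKM at 120 h, 0.01 RPKM at 72 h and 2.32 RPKM in untreated cells and fell in both. The coactivator Pprc1 fell at 120 h (-1.5) and rose at 72 h (0.55), and Ppargc1b fell at 120 h (-1.41), while Ppargc1a was at most 0.016 RPKM on average in any group. Nrf1 (-0.26) and Gabpa (-0.25) fell at 120 h by less than the median of all genes (-0.36), whereas Yy1 (-0.11) and Esrra (-0.18) were not called. Under median-of-ratios scaling 4 of the 9 regulators tested fell and 2 rose at 120 h, against 6 and 1 on RPKM. Of all genes, 38.6% fell and 39.4% rose under that scaling, against 52.7% and 27.5% on RPKM.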

How the data were processed

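RNA sequencing of 10 mouse cell line libraries was analysed from the authors' deposited RPKM values per Ensembl transcript (per the file headers), with 79535 transcripts in each library. The aligner was STAR and the genome build GRCm38, per the submitters' processing notes. The sources used here do not give the counting program, annotation release, use of strand or filter. Transcripts were matched to GENCODE M21 without version numbers (77720, or 97.7%, matched), and 1 transcript, the principal coding one where listed, stood for each gene. RPKM times length gave whole reads for 100% of 4789 to 5788 low values per library (tolerance 0.02 reads plus an allowance for rounding of the RPKM values). The divisor, 173620000 to 204400000 reads, was the one that brought such values nearest to whole reads. With it, 1 read on 2 kb was 0.00245 to 0.00288 RPKM. The number of libraries rather than depth limits the precision.

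Genes with at least 1 RPKM in at least 2 libraries (13004) were fitted with limma 3.58.1 (R 4.3.3) on log2(RPKM + 1) over all 5 groups, with a mean-variance trend, two-sided tests and Benjamini-Hochberg adjustment over all genes, called under 0.05. Fold changes, being on the log2(RPKM + 1) scale, are too small for low genes. The 6 comparisons were repeated under 23 alternatives (22 for the 2 that need the 120 h group). The script was tested on simulated data. The members, lists and alternatives were chosen with earlier results of these data known. Members named were the extremes by fold change in each comparison with untreated cells, the extremes by level, those called in opposite directions, and those of set functional sites. Listed genes named were the extremes called at 120 h and 72 h and the highest uncalled, and every regulator; isoforms and overlapping genes were chosen after values were seen. Some genes of these lists are not reported here.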

Additional observations from a re-analysis of the deposited data

Results flagged for a closer look

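Mrpl19, Mrpl36 and Mrpl49 were called higher at 72 h and lower at 120 h against the same untreated libraries. The log2 difference of 72 h from 120 h was 1.4 for Mrpl19, 1.5 for Mrpl36 and 1.32 for Mrpl49, higher in 2 of 2 libraries for each. Genes picked for opposite calls must differ between these groups, so this is a description. The values lay above the median of the 78 genes (1.12), 75 of which were called higher at 72 h than at 120 h. The calls of Mrpl36 and Mrpl49 at 72 h were not made when any 1 of the untreated, 24 h, 40 h or 72 h libraries was left out, and that of Mrpl19 at 120 h not under median-of-ratios or TMM scaling.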

How the results depend on the processing

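With 2 libraries a group, replicate spread rather than depth limited these results. Counts of members in this section come without the share of all genes called in the same fit, except where it is given. At 120 h the count of lower genes stayed within 1.5 times of 77 in all alternatives, and the cause of the changes below was not tested. Median-of-ratios scaling and TMM scaling gave a median at 120 h of -0.77 and -0.78, a median for 72 h against 120 h of 0.72 and 0.73 (0.95 with quantile normalization), and a summed level at 120 h of 65.4% and 64.6% of untreated. They turned the direction of Mrps21 at 120 h (0.05 and 0.03) and of Mrps18c between 72 h and 120 h (-0.09 and -0.07), and median-of-ratios scaling also that of Mrpl4 at 120 h (0.01) and of Mrpl45 between 72 h and 120 h (-0.01), none of them called there. Between 72 h and 120 h, Mrps21, Mrpl4 and Mrpl14, uncalled on RPKM, also turned under median-of-ratios scaling (-0.23, -0.17 and -0.15) and TMM scaling (-0.21, -0.16 and -0.13), again uncalled. The count of higher genes at 120 h was 0 with no filter, under array weights and with the compared pair of groups alone, and 0 to 1 when 1 library was left out. Without the 120 h group, with the compared pair of groups alone and under array weights, the 40 h counts were 6, 6 and 7 higher with 1 lower each, the 72 h counts 12, 11 and 11 higher with 13, 11 and 13 lower, and the counts for 72 h against 40 h 3, 2 and 2 higher with 22, 14 and 15 lower. Quantile normalization gave 1 higher at 40 h and 1 higher for 72 h against 40 h, as did the fit on recovered reads for the last. That fit called 1928 of 13004 genes higher and 1784 lower for 72 h against 40 h. At 120 h it called 3730 genes higher and 6640 lower, among them 1 member higher and 77 lower. No filter gave 2 higher at 72 h and 2 lower for 72 h against 40 h. Leaving out 1 library at a time gave 0 to 6 higher and 0 to 1 lower at 40 h, 2 to 12 higher and 3 to 13 lower at 72 h, 0 to 3 higher and 2 to 21 lower for 72 h against 40 h, and a median for 72 h against 120 h of 0.92 to 1.33. The counts of 6, 12, 13 and 21 came from leaving out either 120 h library. Replicate numbers were not taken as pairing the samples: the correlation of replicate differences between groups ran from 0.0341 to 0.639, not all over 0.1. All of these were positive. They were highest between 40 h and 72 h (0.364), 40 h and 120 h (0.414) and 72 h and 120 h (0.639), and the main fit does not model such a shared difference. With the replicate as a block, 5 members were higher and 5 lower at 72 h, 6 were lower for 72 h against 40 h, 77 were higher for 72 h against 120 h, and the 120 h counts stayed at 1 and 77.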
